A study of Mus musculus with 3 samples.

Results

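The anti-apoptotic members of the Bcl2 family are the 8 genes Mcl1, Bcl2l1, Bcl2l2, Bcl2, Bcl2a1a, Bcl2a1b, Bcl2a1d and Bcl2l10, chosen by their mouse symbols and found in the table by Entrez number, 8 of 26286 genes. Their transcripts were measured by RNA-seq in 3 libraries of pre-B cells sorted from mouse bone marrow, all of 1 group. The cells came from bitransgenic mice that carry CAG-rtTA3, a doxycycline-dependent transactivator under the broadly active CAG promoter, and TRE-GFP-shLuc.1309, which couples GFP to a control short hairpin RNA. Dox was given for 3 days, so every library had the transactivator, the induced hairpin and the drug, and no untreated or wild-type library was set against them. The gate took GFP+ B220+ CD25+ cells and left out cells with surface IgM or Kit. Separate animals are not stated for the libraries, so p-values measure only the spread between these samples.

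Cells commit to mitochondrial apoptosis when the effector proteins BAX and BAK open the outer membrane of the mitochondrion. The survival proteins hold the effectors and the BH3-only proteins, which start the process, in a surface groove, and the outcome depends on how much of each is present. In B-cell development MCL1 is needed throughout, BCL-XL (encoded by Bcl2l1) is known for its role at the pre-B stage, and BCL2 is known for its role in mature lymphocytes.

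The members share the coding stretch of the BH1 region, which forms part of that groove. It was located in the coding sequences of the GENCODE annotation of GRCm38 by the in-frame letters AANTGGGGN on the coding strand, which 2.45% of 21523 mouse coding sequences hold, and it was found once in 7 of the 8 members. Bcl2l10 did not hold these letters. The windows below, 63 bases each in the 5′ to 3′ direction with the matched letters in capitals, show how far apart the main members are in a stretch that they all have.
Mcl1: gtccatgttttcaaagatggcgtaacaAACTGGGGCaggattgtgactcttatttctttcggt
Bcl2l1: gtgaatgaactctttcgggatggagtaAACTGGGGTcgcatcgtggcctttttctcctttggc
Bcl2l2: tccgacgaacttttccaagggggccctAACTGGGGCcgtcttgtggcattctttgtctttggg
Bcl2: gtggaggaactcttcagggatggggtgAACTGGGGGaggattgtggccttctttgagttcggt
Bcl2a1a: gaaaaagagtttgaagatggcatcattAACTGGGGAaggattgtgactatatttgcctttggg
Over this window Bcl2 and Bcl2l1 had 73.0% of bases in common, Mcl1 and Bcl2a1a 68.3%, Mcl1 and Bcl2l1 55.6%, and Mcl1 and Bcl2l2 50.8%. The window was the same in Bcl2a1a, Bcl2a1b and Bcl2a1d.

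The Bcl2a1 genes, which encode the A1 proteins, are near-identical copies on chromosome 9. Over the 519 coding bases, stop codon included, Bcl2a1a and Bcl2a1b had 97.9% identity, Bcl2a1a and Bcl2a1d 98.7%, and Bcl2a1b and Bcl2a1d 98.8%. Just 12 positions differed among the copies, and 6 of them lie in the first 60 bases, which are printed with the differing positions in capitals. Within the coding sequence, only a read that covers a differing position can separate copies, and a single position need not separate all of them.
Bcl2a1a: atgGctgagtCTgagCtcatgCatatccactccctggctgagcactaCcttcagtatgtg
Bcl2a1b: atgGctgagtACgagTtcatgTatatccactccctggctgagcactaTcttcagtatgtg
Bcl2a1d: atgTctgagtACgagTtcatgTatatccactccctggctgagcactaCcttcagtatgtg
The longest run without a difference was 217 bases.

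Library totals ranged from 12021576 to 32086649 counts, with replicate 3 the deepest (2.67-fold over the smallest). Replicate 3 was also processed with CASAVA 1.8.0 and the others with 1.8.2, per the labels. Replicate 1 stood apart at Xist, which is expressed in females, and at the Y-linked Ddx3y, and so came from another animal than the others, while the spread between replicates 2 and 3 may be technical. It had 22609 counts of Xist and 1 of Ddx3y, against 94 and 70 counts of Xist and 1950 and 4881 of Ddx3y in replicates 2 and 3. The labelled cell type was checked against 11 pre-B markers, and all of them reached 1 RPKM in every library. Ighm, Igkc and Cd79b were the highest, and the lowest were Ptprc, which encodes B220, and Il2ra, which encodes CD25, at 89.3 ± 17.7 RPKM (SD, n = 3). RPKM is the read count per kilobase of gene length and per 1000000 counts of the library.

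Mcl1 and Bcl2l1 supplied nearly all survival transcripts counted in these libraries, and Bcl2 was close to absent. The counts of the Bcl2a1 copies are uncertain because much of their sequence is shared, so their part of the survival transcripts is not known. Of the 8 members, 3 reached 1 RPKM in every library, against 42.4% of all genes in the table. The median level of the 8 members was -0.57 on the log2(RPKM + 0.5) scale, and 4 of them had at most 4 counts in all. The 17423 genes with a count had a median of 2.56. That value leaves out the 8863 genes with 0 counts, while the members include Bcl2l10, so the medians are not of like sets. By these counts the family was thus divided into a pair of abundant genes, a pair of low genes and 4 genes at or near zero.

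Mcl1 (Entrez 17210), whose short-lived protein binds BAK and BIM, had 6569, 6640 and 20305 counts, or 152, 159 and 181 RPKM, in replicates 1, 2 and 3. Replicate 3 was highest and replicates 1 and 2 lay close together. Its mean of 164 ± 15.3 RPKM (SD, n = 3) ranked 373 of 17423 genes by level. Mcl1 took 54.2%, 56.8% and 59.0% of the summed RPKM of the members in replicates 1, 2 and 3.

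Bcl2l1 (Entrez 12048), which encodes BCL-XL and by alternative splicing the pro-apoptotic BCL-XS, had 3703, 3360 and 9443 counts, or 126, 118 and 124 RPKM. The libraries were nearly level, with a coefficient of variation of 3.16%, against 9.32% for Mcl1. Its mean was 123 ± 3.88 RPKM, rank 539, and its share of the summed RPKM was 45.0%, 42.3% and 40.4%. Gene counts do not tell the long from the short splice form.

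Bcl2l2 (Entrez 12050), which encodes BCL-W, a survival protein known for its role in the testis, had 85, 104 and 152 counts, or 1.98, 2.51 and 1.37 RPKM. Replicate 3 was the lowest of the libraries and replicate 2 the highest. The mean of 1.95 ± 0.57 RPKM was the only level between 1 and 100 RPKM in the family. Of its 31-base transcript words, 12.59% are also in Gm20521, an annotated gene that overlaps it, so its count is uncertain. The share of words does not give the size of that uncertainty.

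Bcl2 (Entrez 12043), the founding member, had 22, 24 and 106 counts, or 0.229, 0.258 and 0.425 RPKM. Exact 95% Poisson intervals of these counts, which cover counting error only, were 13.8 to 33.3, 15.4 to 35.7 and 86.8 to 128. Replicate 3 was highest, and the mean of 0.304 ± 0.106 RPKM lay above the level of 25.3% of genes with a count. Of the 31-base transcript words of Bcl2, 6.19% are in other genes, so its count is uncertain too. The deposited length of Bcl2 is 7749 bases, the longest of the members, so in CPM, counts per 1000000 without gene length, it stood somewhat nearer to the others, at 2.36 ± 0.82 CPM against 571 ± 53.3 CPM for Mcl1.

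The Bcl2a1 copies, whose A1 protein is known as a survival factor of neutrophils and of activated or mature B cells, had 6 counts in all. Bcl2a1a (Entrez 12044) and Bcl2a1b (Entrez 12045) had 1 count each, both in replicate 3, and Bcl2a1d (Entrez 12047) had 1, 0 and 3 counts in replicates 1, 2 and 3. With 3 counts in 1 library, the level of Bcl2a1a or Bcl2a1d would be 0.303, 0.314 and 0.117 RPKM in replicates 1, 2 and 3. Bcl2l10 (Entrez 12049), known as Boo or Diva and mainly from ovary, had no counts in any library, which allows up to 0.197, 0.204 and 0.0759 RPKM (3 counts in each).

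**Figure D1:**
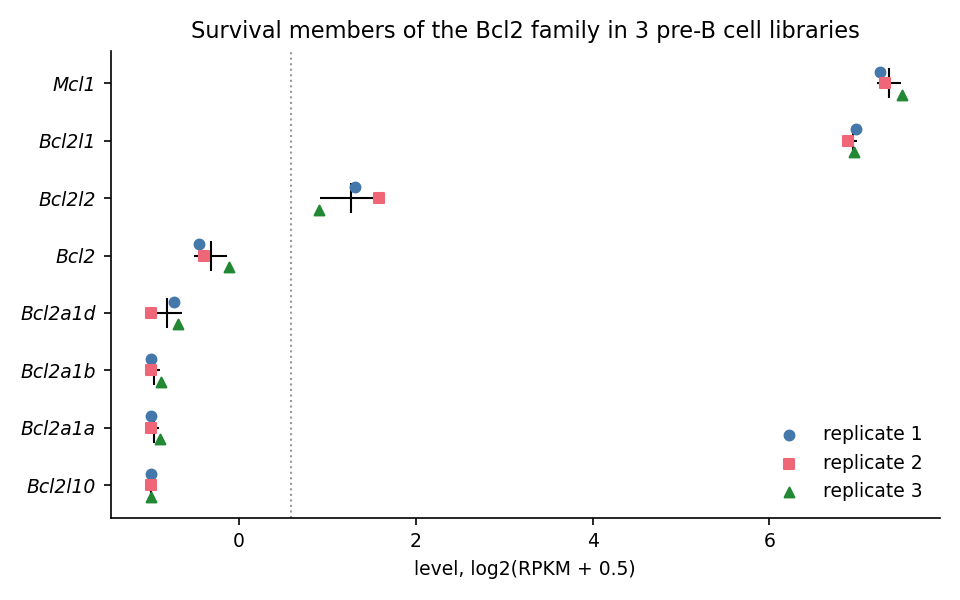
Level of each survival member in each pre-B cell library as log2(RPKM + 0.5) on the horizontal axis, with the genes down the page by mean level. Coloured points are replicates 1, 2 and 3, black ticks and bars the mean and SD of the 3 libraries, and the dotted line 1 RPKM; Mcl1 and Bcl2l1 sit far right of it, Bcl2l2 just right, and the other 5 members left of it.

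Since counts of the A1 genes are so low, the share of each member's transcript sequence found in another gene was measured beside them. Words were pooled over all annotated transcripts of a gene, so a share can differ from that of the counted sequence. Of the 31-base words of Bcl2a1a, Bcl2a1b and Bcl2a1d, 79.6%, 88.8% and 89.1% occur in a transcript of another gene, and of the 100-base words 43.5%, 56.8% and 54.7%. The partners were the other copies and Gm29094, an annotated gene that holds 42.2% of the 100-base words of Bcl2a1b. For Mcl1 and Bcl2l1 at most 0.50% of 31-base words had such a partner, Gm20432 for 17 words of Mcl1. Of 775 protein-coding genes of the table with 75 to 100% of 31-base words shared, 77.9% had at most 9 counts in all, against 38.8% of the 13119 genes with under 5% shared. How multi-mapping reads were assigned is not stated, so the counts of the A1 copies are uncertain. The part of shared sequence in their near-zero counts was not tested.

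**Figure D2:**
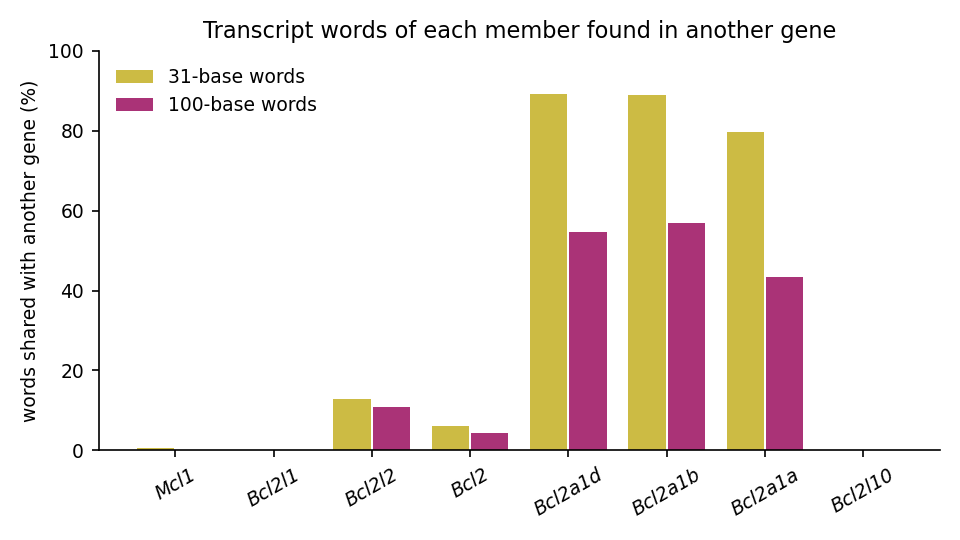
Percent of each member's transcript words that another annotated gene also holds (vertical axis), for words of 31 bases (yellow) and 100 bases (purple), with the members ordered by level from left to right. The 3 Bcl2a1 copies stand between 79.6% and 89.1% for 31-base words, while Mcl1 and Bcl2l1 stay under 1%.

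The order of levels was the same in every library for the members with more than 9 counts: Mcl1, Bcl2l1, Bcl2l2, Bcl2. Differences between genes were taken within each library on the log2(RPKM + 0.5) scale, and an exact sign-flip test over 3 libraries cannot go below a two-sided p of 0.25, so none of the 10 differences computed could pass 0.05. All 10 were positive in 3 of 3 libraries, each with that smallest p of 0.25 in the exact test, before and after Benjamini-Hochberg adjustment. Mcl1 exceeded Bcl2l1 by 0.27, 0.42 and 0.55, a mean of 0.41 ± 0.14 or 1.33-fold. This was the closest pair of neighbours, with Mcl1 1.21 times Bcl2l1 in replicate 1 and 1.46 times in replicate 3. Without gene length, in CPM, the mean difference was 0.97.

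Bcl2l1 exceeded Bcl2l2 by 5.68 ± 0.38, and the ratio of their RPKM values was 63.6, 47.2 and 90.7 in replicates 1, 2 and 3. Bcl2l2 exceeded Bcl2 by 1.59 ± 0.51, with a ratio of 8.65, 9.70 and 3.21. Bcl2l1 exceeded Bcl2 by 7.27 ± 0.18 and Mcl1 exceeded Bcl2 by 7.68 ± 0.06. As ratios of RPKM, which the pseudocount does not compress, Mcl1 was 663, 614 and 425 times Bcl2, and Bcl2l1 was 550, 458 and 291 times Bcl2. The gap of the abundant genes to Bcl2 was thus smallest in replicate 3, where Bcl2 was highest.

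Mcl1 exceeded Bcl2a1b by 8.32 ± 0.07 on the log2(RPKM + 0.5) scale, a value that the pseudocount sets in large part. From counts pooled over the libraries, Mcl1 was 7339 times Bcl2a1b (exact 95% Poisson interval of the 1 count 1317 to 289840) and 1912 times Bcl2a1d (747 to 7015, from 4 counts). These intervals cover counting error only. The A1 copies share much of their sequence and the treatment of multi-mapping reads is not stated, so both ratios are uncertain beyond the intervals. Taking 3 counts in each library for the 0 of Bcl2l10, Mcl1 was at least 771-, 779- and 2382-fold higher in replicates 1, 2 and 3.

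The spread between libraries was tested gene by gene over 12147 genes with enough counts in every library, which took in 4 of the 8 members. By a chi-square test against Poisson noise with Benjamini-Hochberg adjustment, 54.6% of all tested genes differed between the libraries, and so did Mcl1, Bcl2l1, Bcl2l2 and Bcl2. The adjusted p was 1.45e-41 for Mcl1, 2.07e-05 for Bcl2l2, 0.0124 for Bcl2 and 0.0470 for Bcl2l1. With counts as high as those of Mcl1 a small difference passes this test, and a majority of genes did. Bcl2 missed it without replicate 1 (adjusted p = 0.0571) and without replicate 3 (0.819), Bcl2l2 without replicate 3 (0.240), and Bcl2l1 without replicate 2 (0.585). Bcl2 also missed it with replicate 3 thinned to the smallest total (0.134), as did Bcl2l1 (0.0508), which missed it with all genes tested too (0.0628).

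Pairs of libraries were set against each other by the same test, with p adjusted over all 12147 genes. In replicate 2 against replicate 1, both processed with CASAVA 1.8.2, 25.9% of genes differed, among them Mcl1 (1.05-fold, adjusted p = 0.0317) and Bcl2l1 (0.941-fold, 0.0411) but neither Bcl2l2 (1.27-fold, 0.240) nor Bcl2 (1.13-fold, 0.818). In replicate 3 against replicate 1, 34.7% of genes differed, including Mcl1 (1.19-fold, 1.20e-33), Bcl2 (1.86-fold, 0.0244) and Bcl2l2 (0.690-fold, 0.0210), while Bcl2l1 did not pass (0.984-fold, 0.576). In replicate 3 against replicate 2, 45.3% differed, including Mcl1 (1.14-fold, 7.04e-19) and Bcl2l2 (0.544-fold, 6.89e-06), and Bcl2 (1.64-fold, 0.0564) and Bcl2l1 (1.05-fold, 0.0510) missed the threshold.

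The spread was then set against that of genes of like abundance. An intercept-only quasi-likelihood fit in edgeR called 0.0165% of genes more variable than their prior, and none of the 4 members tested, with an adjusted p between 0.991 and 0.996 and an unadjusted p between 0.138 and 0.857. Replicate 3 was then compared with replicates 1 and 2, the split by CASAVA version, which cannot be told apart from replicate 3 itself. Replicate 3 is then the only library on its side, so the spread comes from replicates 1 and 2, which differ in sex, and from edgeR's prior, and replicate 3 is assumed to vary like them. In edgeR's quasi-likelihood test 0.0741% of genes were called, and none of the 4 members. The log2 difference, replicate 3 minus replicates 1 and 2, was 0.22 (SE 0.13, adjusted p = 0.629) for Mcl1 and 0.02 (SE 0.13, adjusted p = 0.971) for Bcl2l1. It was 0.80 (SE 0.31, adjusted p = 0.475) for Bcl2 and -0.71 (SE 0.28, adjusted p = 0.476) for Bcl2l2, and these last values had an unadjusted p of 0.0347 and 0.0350. DESeq2 called none of the 4 members either.

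**Figure D3:**
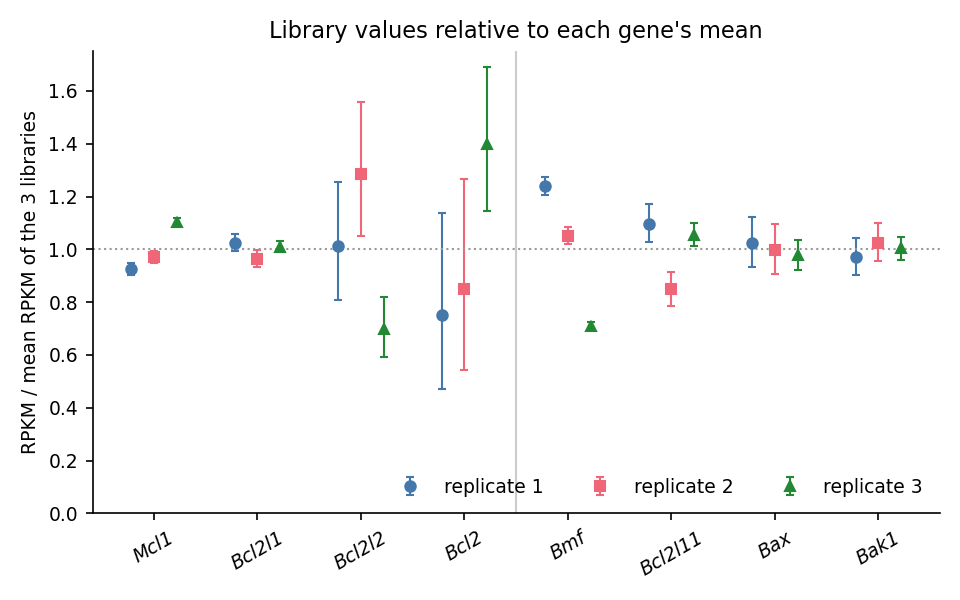
RPKM in each library divided by the gene's mean over the 3 libraries (vertical axis, from 0), for the 4 survival members with more than 9 counts (left of the grey line) and 4 death genes (right). Points are replicates 1, 2 and 3 and bars the exact 95% Poisson interval of each count; Bcl2l1, Bax and Bak1 stay near 1, Bcl2 is highest and Bcl2l2 and Bmf are lowest in replicate 3.

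Transcripts of other marrow cells were present. All 10 neutrophil markers reached 1 RPKM in every library, led by S100a9, S100a8 and Ngp, and none was at 0. Their summed level was 1302, 1580 and 2322 RPKM in replicates 1, 2 and 3, so replicate 3 held 1.78 times replicate 1 and 1.47 times replicate 2, in the order in which Mcl1 and Bcl2 also stood. S100a9 and S100a8 made up most of that sum. Of the 10 markers, 7 were highest in replicate 3, 2 in replicate 1 and 1 in replicate 2. Elane, highest in replicate 1, stood at 3.24, 2.45 and 2.74 RPKM in replicates 1, 2 and 3. Neutrophils are known to express Mcl1 and the A1 genes, and the part of their transcripts in the Mcl1 level was not tested. The A1 copies had their 6 counts beside these markers. In bulk samples, fewer cells of a type and less RNA per cell cannot be told apart.

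Other marker lists were lower, and none had a member at 0 in all libraries. Basophil and mast cell markers, 1 of 6 at 1 RPKM in every library, summed to 3.58, 7.24 and 24.3 RPKM in replicates 1, 2 and 3, again highest in replicate 3. Monocyte and macrophage markers, 4 of 7 at that level, summed to 20.2, 20.4 and 26.3 RPKM, with 5 of 7 highest in replicate 3 and Cd68 and C1qa highest in replicate 1. T and NK cell markers, 1 of 9, summed to 4.96, 5.90 and 4.59 RPKM, lowest in replicate 3, with Klrb1c the highest at 3.11 RPKM and Cd3d next at 0.479 RPKM on average.

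Markers of neighbouring B-lineage stages bear on Bcl2, whose level is known to differ between them. Pro-B markers, 3 of 6 at 1 RPKM in every library, summed to 54.1, 63.1 and 79.7 RPKM, most of it Igll1 and Vpreb1, in the same order as Bcl2. The other pro-B markers were mixed. Dntt stood in that order too, at 4.57, 4.86 and 5.56 RPKM in replicates 1, 2 and 3. Kit ran the opposite way at 1.07, 0.870 and 0.432 RPKM. Flt3, at 0.528, 0.411 and 1.06 RPKM, and Cd34, at 4, 1 and 10 counts, did not follow that order. Mature B markers, 5 of 8, summed to 270, 283 and 252 RPKM, with Ighd at 78.7 ± 11.7 RPKM but the defining markers Cr2 at 0.244 ± 0.106 RPKM and Fcer2a at 0.185 ± 0.032 RPKM. Plasma cell markers, 3 of 5, summed to 325, 316 and 302 RPKM, of which Irf4, also a pre-B factor, made up 240 ± 15.6 RPKM. The part of these lists in the level of any survival gene was not tested.

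The survival proteins act on the BH3-only proteins and the effectors, whose transcripts were read from lists of 8 and 3 genes. Of the BH3-only genes, 6 of 8 reached 1 RPKM in every library, with a median of 2.09 on the log2(RPKM + 0.5) scale. Bmf, whose protein senses changes of the cytoskeleton and binds most survival proteins, was the highest at 96.2, 81.6 and 55.0 RPKM in replicates 1, 2 and 3. It was lowest in replicate 3, the library in which Mcl1 was highest. Of the 6 BH3-only genes tested, 3 differed between the libraries beyond Poisson noise, against 54.6% of all genes, and of the 2 effector genes tested none did. Bmf made up 73.1%, 72.2% and 59.5% of the summed BH3-only level.

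The other BH3-only genes were lower. Bcl2l11, which encodes BIM, the main killer of developing lymphocytes, stood at 14.8, 11.4 and 14.2 RPKM in replicates 1, 2 and 3. Bad, whose protein binds BCL2 and BCL-XL but not MCL1, stood at 9.60 ± 0.70 RPKM, and Bid, which links death receptors to the mitochondrion, at 8.23 ± 0.82 RPKM. Pmaip1, which encodes NOXA, a binder of MCL1 and A1, stood at 1.62 ± 0.56 RPKM and the p53 target Bbc3, which encodes PUMA, at 1.55 ± 0.27 RPKM. Bik stood at 0.296 ± 0.108 RPKM, and Hrk had no counts. Of the effectors, Bax stood at 42.6 ± 0.99 RPKM and Bak1 at 31.6 ± 0.86 RPKM, against 0.185 ± 0.185 RPKM for Bok.

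Set beside these, Mcl1 exceeded Bcl2l11 by 3.56 ± 0.22 and Bmf by 1.11 ± 0.54 on the log2(RPKM + 0.5) scale. Its ratio to Bmf was 1.58, 1.95 and 3.29 in replicates 1, 2 and 3, lowest in replicate 1 and highest in replicate 3. Bcl2l1 exceeded Bax by 1.51 ± 0.05 and Bak1 by 1.94 ± 0.08, with ratios of RPKM between 2.78 and 2.97 for Bax and between 3.65 and 4.10 for Bak1. Of the 31-base words of Bak1 20.4% are in other genes, and of those of Bax 11.1%. Summed over all members, the survival genes held 1.36, 1.49 and 1.85 times the RPKM of the BH3-only and effector genes. Against the BH3-only genes alone they held 2.12, 2.48 and 3.32 times the RPKM with Bmf, and 7.88, 8.92 and 8.20 times without it. These are ratios of transcripts per length, not of proteins.

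**Figure D4:**
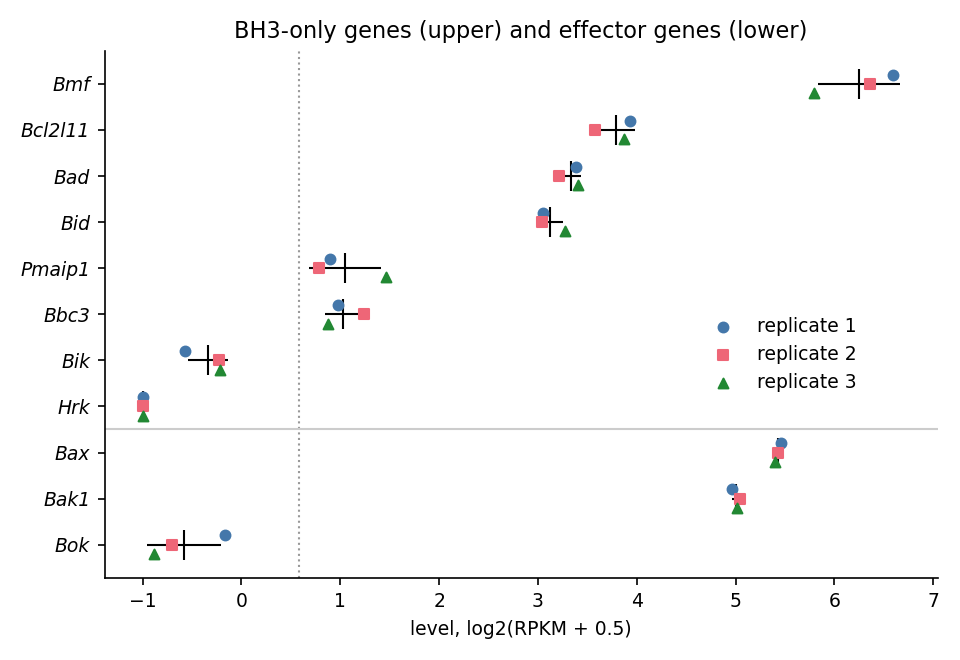
Level of each BH3-only gene (above the grey line) and effector gene (below it) in each library as log2(RPKM + 0.5) on the horizontal axis, with replicates as coloured points, mean and SD of the 3 libraries in black and 1 RPKM as the dotted line. Bmf, Bax and Bak1 are the highest, Bmf is spread between the libraries, and Hrk sits at 0 counts.

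Genes that set the amount of MCL1 protein were largely expressed, 7 of 8 at 1 RPKM in every library. The kinase genes Gsk3a (64.2 ± 4.25 RPKM) and Gsk3b (20.2 ± 1.41 RPKM), whose products mark MCL1 for destruction, and the ubiquitin ligase genes Huwe1 (55.2 ± 1.32 RPKM), Btrc (28.2 ± 1.05 RPKM), Marchf5 (13.7 ± 0.44 RPKM) and Fbxw7 (10.8, 12.9 and 9.28 RPKM in replicates 1, 2 and 3) stood beside Usp9x (18.8 ± 0.47 RPKM), whose enzyme removes ubiquitin from MCL1. Usp13, another such enzyme, had no counts.

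Upstream of the survival genes, all 6 genes of IL-7 receptor and Stat5 signalling, which induces Bcl2l1 and Mcl1 in B-cell precursors, reached 1 RPKM in every library. Il7r was at 240, 225 and 181 RPKM in replicates 1, 2 and 3, lowest in replicate 3 where Mcl1 was highest. Stat5b was at 26.3 ± 1.03 RPKM and Stat5a at 12.8 ± 0.94 RPKM. All 5 NF-kappaB genes, known inducers of the A1 genes, did so too, led by Nfkb1 (64.2 ± 3.02 RPKM) and Nfkb2 (44.8 ± 1.52 RPKM), with Rel lowest at 24.5 ± 1.99 RPKM.

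Downstream, 6 of 7 genes of the apoptosome and the caspases reached 1 RPKM in every library. Apaf1, the scaffold, stood at 29.0 ± 0.20 RPKM and Casp9, the caspase it activates, at 17.3 ± 1.00 RPKM. Cycs, which encodes cytochrome c, stood at 0.773 ± 0.419 RPKM, although all cells make it. Of its 31-base words 29.4% are in other genes, so its count is uncertain, like that of Gapdh (2.35 ± 0.20 RPKM, 28.1% of words shared). For Gapdh, 1237 of the 4408 words pooled over its annotated transcripts are shared, beside a deposited length of 1232 bases. The 28.1% is thus not the share of the sequence that was counted. All 7 genes of the IAP proteins, some of which block caspases, and of their antagonists reached 1 RPKM. Birc3 (73.3 ± 11.9 RPKM) and Birc5 (36.6 ± 5.92 RPKM) were the highest. Xiap stood at 32.4 ± 0.76 RPKM and the antagonist Diablo at 23.2 ± 1.41 RPKM. Shared words were not limited to low genes: they made up 39.6% for Diablo, 37.6% for its fellow antagonist Htra2 and 23.6% for Actb, which stood at 1281 ± 105 RPKM, so those counts are uncertain too. Beyond Poisson noise, 5 of 7 tested turnover genes, 4 of 6 of the IL-7 list, 3 of 5 of the NF-kappaB list, 6 of 7 of the apoptosome list and 4 of 7 of the IAP list differed between the libraries, beside the 54.6% of all tested genes.

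**Figure D5:**
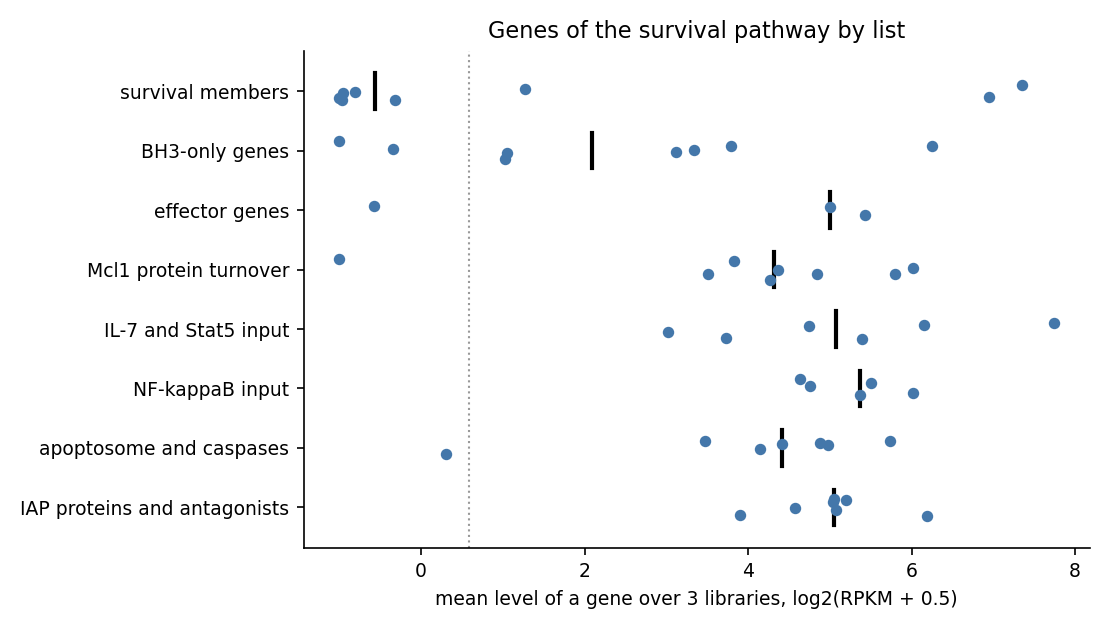
Mean level of each gene over the 3 libraries as log2(RPKM + 0.5) (horizontal axis), by gene list down the page, with vertical scatter for display only. Black bars are list medians and the dotted line is 1 RPKM; the survival members have a median of -0.57, with Mcl1 and Bcl2l1 as the pair at the far right.

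By level over the 3 libraries, the protein-coding genes nearest to Mcl1 were Cnbp and Actr3, at a root mean square difference of 0.053 and 0.059 on the log2(RPKM + 0.5) scale among 20832 genes. Nearest to Bcl2l1 were Akna (0.025) and Mdh2 (0.042), and nearest to Bcl2l2 were Mterf1b (0.019) and Card14 (0.046). With 3 libraries this likeness is mostly one of level.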

How the data were processed

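The deposited tables give raw read counts per Entrez gene with the length of each gene. The submitters' processing notes name CASAVA, featureCounts and mm9. The aligner, the annotation, the strand and the treatment of reads with several matches are not stated. The sample files and the series table held the same counts. Symbols came from RefSeq (GRCm38.p6), which matched 24176 identifiers; words and coding sequences came from GENCODE transcripts of GRCm38, so no coordinates are given.

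Library sizes were scaled by TMM (factors 1.0003, 0.99685 and 1.0028) and RPKM was computed from the deposited counts and lengths. Tests used R 4.3.3, edgeR 4.0.16 and limma 3.58.1 on genes kept by filterByExpr (minimum count 10, minimum total 15), with Benjamini-Hochberg adjustment over all 12147 genes at 0.05 and DESeq2 1.42.0 as an alternative. The SE of a log2 difference is its size over the square root of edgeR's F. Scripts were tested on simulated data. Intervals and floors cover counting error only. With 1 group of 3 libraries, depth from 12021576 to 32086649 counts sets the precision.

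The members and all gene lists were chosen with earlier results of these data known. Named are the members, the highest and lowest genes of each list (all of lists of at most 8), the genes of the planned differences, the nearest genes by level, and Gapdh, Actb, Xist and Ddx3y as checks, though not all of them were printed. Alternatives were other scaling, pseudocounts and minimum levels, CPM or TPM, no filter, a robust fit, thinning, DESeq2 and leaving out replicates. Figures used matplotlib 3.10.9 in Python 3.11.15.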

Additional observations from a re-analysis of the deposited data

How the results depend on the processing

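The 10 differences between genes kept their sign under every scaling, pseudocount and unit tried and without each replicate. All 10 were positive in every library, and scaling, pseudocounts, TPM and leaving out a library cannot change that. Only CPM, which drops gene length, could have changed a sign. The levels of the 8 members stayed within 1 SD under other scaling, and 3 members (2 at a minimum of 2 RPKM) reached the minimum level, also without each replicate. Levels stayed within 1 SD without each replicate too, but leaving out 1 of 3 libraries cannot move a mean that far. The count of genes beyond Poisson noise, 6627, was between 3145 and 5590 without a replicate (3145 without replicate 3 and 4256 without replicate 2). The count of genes more variable than their like, 2, became 46 with all genes that have a count and 0 in a robust fit (604 at an unadjusted p under 0.05), and lay between 2 and 44 without a replicate (8 without replicate 1 and 44 without replicate 2). The 9 genes called between replicate 3 and replicates 1 and 2 became 23 without scaling, 36 with DESeq2 and 0 with all genes that have a count (1200 at an unadjusted p under 0.05). None of Mcl1, Bcl2l1, Bcl2l2 and Bcl2 was among the calls of the last 2 tests in any of these. The cause of these shifts was not tested. That comparison was not refitted without a replicate, since replicate 3 alone is 1 side and leaving out another leaves no spread to test. No paired analysis was possible because all libraries form 1 group. Depth limits the A1 genes and Bcl2l10, at 0 to 3 counts a library.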

Other observations

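Other relatives of the family were read from a list of 5 genes, of which 2 reached 1 RPKM in every library. Bcl2l12 stood at 25.5, 23.4 and 21.9 RPKM and Bcl2l13, a protein of the mitochondrial outer membrane, at 13.4, 13.0 and 13.8 RPKM in replicates 1, 2 and 3. In the chi-square test against Poisson noise, which 54.6% of all tested genes passed, their adjusted p was 0.113 and 0.219. Bcl2l14 (0.185 ± 0.134 RPKM, n = 3) and Bcl2l15 (0.152 ± 0.045 RPKM) were low, and Bcl2a1c, a further A1 copy with 30.9% of its 31-base words in other genes, had no counts.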
